A study of Rattus norvegicus with 10 samples.

Results

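Genes of the tumour necrosis factor (TNF) superfamily and of the NF-kB pathway were followed in the kidney cortex of rats mutant for Kcnj16, the gene of a potassium channel that tubule cells use. The members were taken by symbol: Tnf, every gene whose name begins with Tnfsf, Tnfrsf, Tnfaip, Traf with a digit, Nfkb, Ikbk, Birc or Ripk, and Rela and Relb. Of the 32545 genes in the table, 73 entries with 71 distinct symbols met this rule, since Tnf and Tnfsf11 each had 2 entries. Messenger RNA of the left kidney cortex of male rats aged 11 to 12 weeks was sequenced after urine collection in metabolic cages. All were Dahl Salt Sensitive rats, an inbred line that becomes hypertensive on a salt-rich diet. The 5 wild-type libraries are SS_WT and the 5 mutant libraries are Kcnj16_m1, and the labels name no treatment for either. The series is titled as a study of Kcnj16 knockout, but the labels do not say what the m1 allele changes, how many founder lines it came from, or whether each library was 1 rat. The p-values therefore measure the spread between these libraries, which may be technical.

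TNF-type ligands bind trimeric receptors whose intracellular parts recruit TRAF adaptors, RIPK kinases and the ubiquitin ligases among the BIRC proteins. These activate the IKK kinases, which mark the IkB inhibitors for destruction and so let NF-kB dimers reach the nucleus. The dimers switch on inflammatory genes and the genes of their own inhibitors, and in the kidney this response is known from injured tubule cells and from the immune cells around them.

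Of the 73 entries, 55 reached 0.5 FPKM (fragments per kilobase of gene, scaled to the depth of the library) in at least 5 libraries and were tested. In the mutant 12 fell and 2 rose at an adjusted p under 0.05. Among all 13971 genes tested, 28.5% were called, 14.6% higher and 14% lower, and among the 55 members 25.5% were called, 3.64% higher and 21.8% lower. The share called was thus near the background, and the calls lay mostly on the lower side. The median log2 fold change was -0.10 for the 55 members and 0.0079 for all tested genes. The 12 that fell included the receptors Tnfrsf12a, Tnfrsf10b and Tnfrsf1a and the Tnfaip genes Tnfaip8l2, Tnfaip3 and Tnfaip8l3. The others were the NF-kB genes Nfkb2, Nfkbiz and Nfkbil1, Birc3, Birc5 and the kinase Ripk3. Tnfaip8 and Traf3ip2 rose. The groups of libraries did not overlap for 11 of the 55 tested members, all of them among these 14 genes. That share was near the 19.2% of all tested genes that had groups without overlap. In whole tissue, fewer cells of a type and less RNA per cell cannot be told apart.

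The sequences of 5 promoters are shown because they belong to NF-kB genes known to be regulated by NF-kB itself, or, for Tnfrsf12a, to the member that fell furthest. Each is read 5′ to 3′ from 250 bases before to 50 bases after the gene's start, is taken from RefSeq on the rat build GRCr8, and carries matches to the kappaB consensus in capitals. The Nfkb2 window is chr1:255108124-255108423 on the plus strand, that of Nfkbiz chr11:58251471-58251770 on the plus strand, and that of Tnfaip3 chr1:15543930-15544229 on the minus strand. The Nfkbia window is chr6:78597023-78597322 on the minus strand and that of Tnfrsf12a chr10:13213599-13213898 on the minus strand.
Nfkb2: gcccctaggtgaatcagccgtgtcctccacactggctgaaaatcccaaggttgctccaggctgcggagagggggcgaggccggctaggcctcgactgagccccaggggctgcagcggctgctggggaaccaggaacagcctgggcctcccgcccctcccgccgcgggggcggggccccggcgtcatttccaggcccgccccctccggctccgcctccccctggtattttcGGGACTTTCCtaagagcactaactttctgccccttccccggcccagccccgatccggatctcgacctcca
Nfkbiz: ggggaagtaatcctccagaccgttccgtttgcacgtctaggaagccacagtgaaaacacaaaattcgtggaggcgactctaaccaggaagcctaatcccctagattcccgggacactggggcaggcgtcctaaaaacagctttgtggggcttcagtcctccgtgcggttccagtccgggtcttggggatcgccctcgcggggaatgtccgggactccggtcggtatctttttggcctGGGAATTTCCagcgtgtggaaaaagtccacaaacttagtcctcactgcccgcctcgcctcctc
Tnfaip3: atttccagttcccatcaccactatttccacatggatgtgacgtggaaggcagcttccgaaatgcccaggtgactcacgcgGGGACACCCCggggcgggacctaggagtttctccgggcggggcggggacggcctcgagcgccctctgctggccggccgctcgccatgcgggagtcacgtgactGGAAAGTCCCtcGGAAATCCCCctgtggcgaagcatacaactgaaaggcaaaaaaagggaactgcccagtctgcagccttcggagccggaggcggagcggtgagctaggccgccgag
Nfkbia: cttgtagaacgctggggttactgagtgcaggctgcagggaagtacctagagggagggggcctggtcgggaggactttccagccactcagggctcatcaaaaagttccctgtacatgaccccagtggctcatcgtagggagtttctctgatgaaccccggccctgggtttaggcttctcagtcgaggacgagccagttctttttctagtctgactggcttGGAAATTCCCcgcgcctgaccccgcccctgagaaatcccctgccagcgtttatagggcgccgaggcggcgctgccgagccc
Tnfrsf12a: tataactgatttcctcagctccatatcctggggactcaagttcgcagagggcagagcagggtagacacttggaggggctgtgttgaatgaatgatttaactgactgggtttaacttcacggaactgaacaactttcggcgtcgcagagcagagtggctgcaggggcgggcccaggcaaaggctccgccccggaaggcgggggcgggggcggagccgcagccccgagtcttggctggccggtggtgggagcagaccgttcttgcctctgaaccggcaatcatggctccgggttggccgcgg

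The kappaB consensus, searched by name on both strands over 10 bases, was present in 4 of the 9 promoters found for members that fell, those of Nfkb2, Nfkbiz, Tnfaip3 and Birc5. Nfkb2 carried GGGACTTTCC centred 15 bases before the start, and Nfkbiz carried GGGAATTTCC centred 8 bases before it. Tnfaip3 held 3 matches, GGGACACCCC 165 bases, GGAAAGTCCC 62 bases and GGAAATCCCC 50 bases before the start. Birc5 held GGGACTTTCC 171 bases and GGGGCGCTCC 47 bases before its start. Tnfrsf12a held no match in this window. Of the 2 members that rose, Traf3ip2 held 1 match, GGGGCATTCC 230 bases before the start. Among 31 tested members that did not pass, 7 promoters held a match, Nfkbia and Nfkb1 among them, and among 13 untested members 2 did. A match was thus found in 14 of the 55 promoters matched (25.5%), in 10.04% of the 10450 promoters of tested genes, and in 7.51% of all 33469 promoters. No entry was found for 16 members, Birc3, Tnfrsf10b and Nfkbil1 among them. A match describes these letters and not a bound site.

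**Figure D1:**
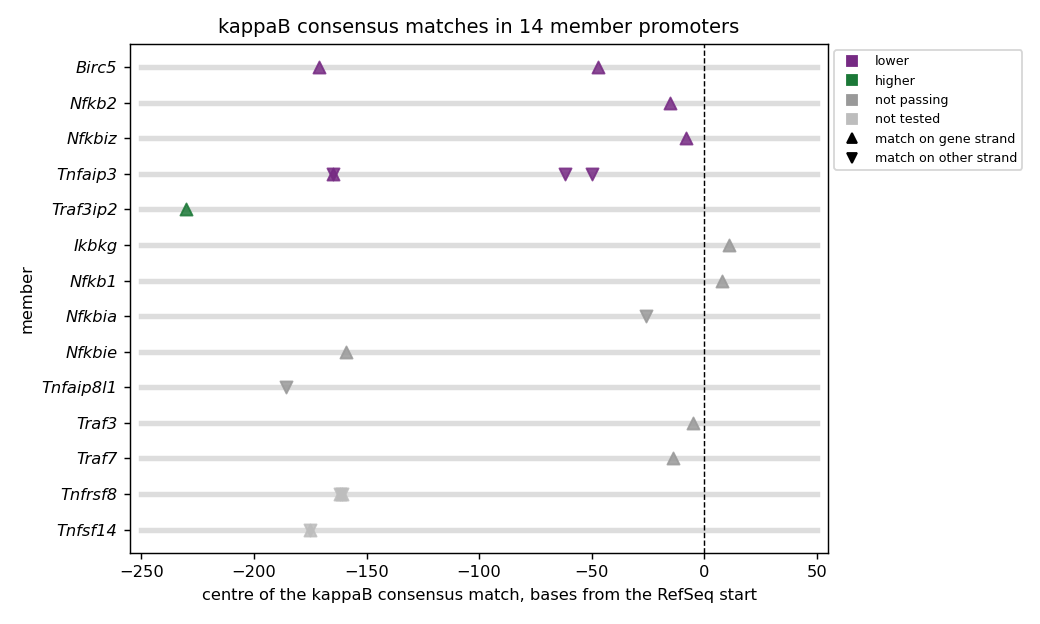
Positions of kappaB consensus matches in the promoter windows of the members, in bases from the gene's start, for the 14 members with a match, coloured by outcome in the mutant, with upward triangles on the gene's strand and downward triangles on the other strand. Matches within 15 bases of the start are found in Nfkb2 and Nfkbiz, which fell, and in Traf7, Traf3, Nfkb1 and Ikbkg, which did not pass.

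The ligands were at low to moderate levels and none of the 4 tested passed. Tnfsf13, a ligand of TNF-family receptors on B cells, was the highest ligand. It was at 15.2, 16.1, 15.7, 14.97 and 14.95 FPKM in wild-type libraries 1 to 5 and 15.1, 17.7, 16.3, 15.7 and 18.1 FPKM in mutant libraries 1 to 5. The groups overlapped (log2 fold change 0.101, 95% interval -0.025 to 0.23, adjusted p = 0.21). Tnfsf12, the ligand of Tnfrsf12a, was at 13.7 ± 1.29 FPKM in the wild type and 13.2 ± 0.858 FPKM in the mutant (SD, n = 5 each, as throughout; limma adjusted p = 0.629). Tnfsf10, the death ligand TRAIL, was at 12.1 ± 2.35 FPKM in the wild type and 13.004 ± 0.702 FPKM in the mutant (adjusted p = 0.451), and Tnfsf13b, the B-cell survival factor BAFF, at 1.82 ± 0.492 FPKM in the wild type and 1.36 ± 0.332 FPKM in the mutant (adjusted p = 0.18).

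Tnf itself was near the detection limit in both groups. Its first entry (ENSRNOG00000000837) stood at 0.0712, 0.0357, 0.0326, 0 and 0.103 FPKM in wild-type libraries 1 to 5 and 0, 0.0349, 0, 0.0287 and 0.107 FPKM in mutant libraries 1 to 5. These came from 7 reads in all wild-type and 5 reads in all mutant libraries, so a difference was not detectable at this depth. The second entry (ENSRNOG00000055156) had 2 and 1 reads. The first overlaps genes of the RT1-CE region, which makes its reads uncertain. Of the 18 members that were not tested, the highest single value was 0.837 FPKM, in Tnfsf14, a ligand of lymphocytes. Tnfsf14 was at 0.501, 0.837, 0.763, 0.164 and 0.724 FPKM in wild-type libraries 1 to 5 and 0.121, 0.164, 0.0718, 0 and 0.167 FPKM in mutant libraries 1 to 5, from 37 and 7 reads, and the lowest wild-type value lay within the mutant range. Tnfsf8 (60 and 9 reads) and Tnfsf18 (33 and 7 reads) are both ligands of TNF-family receptors on T cells. In FPKM both lay higher in every wild-type than in every mutant library, but their reads were not apart. Wild-type library 4 and mutant library 1 each had 4 reads of Tnfsf8, and each had 2 reads of Tnfsf18. The share of all untested genes without overlap was not counted. Tnfsf8 was at 0.0591 to 0.342 against 0.0121 to 0.0433 FPKM, and Tnfsf18 at 0.0569 to 0.3897 against 0 to 0.0566 FPKM. When all genes above 0 were tested, Tnfsf14 (adjusted p = 0.0131) and Tnfrsf13c, a TNF-family receptor of B cells (14 and 2 reads, adjusted p = 0.033), passed. They were the only 2 of these 18 members to do so, while 1823 genes were higher and 2021 lower among all 21459 tested that way. The other untested members were Tnfsf4, Tnfsf9, Tnfsf15, both entries of Tnfsf11, Tnfrsf4, Tnfrsf8, Tnfrsf13b, Tnfrsf17, Tnfrsf18, Tnfrsf19 and Birc7.

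**Figure D2:**
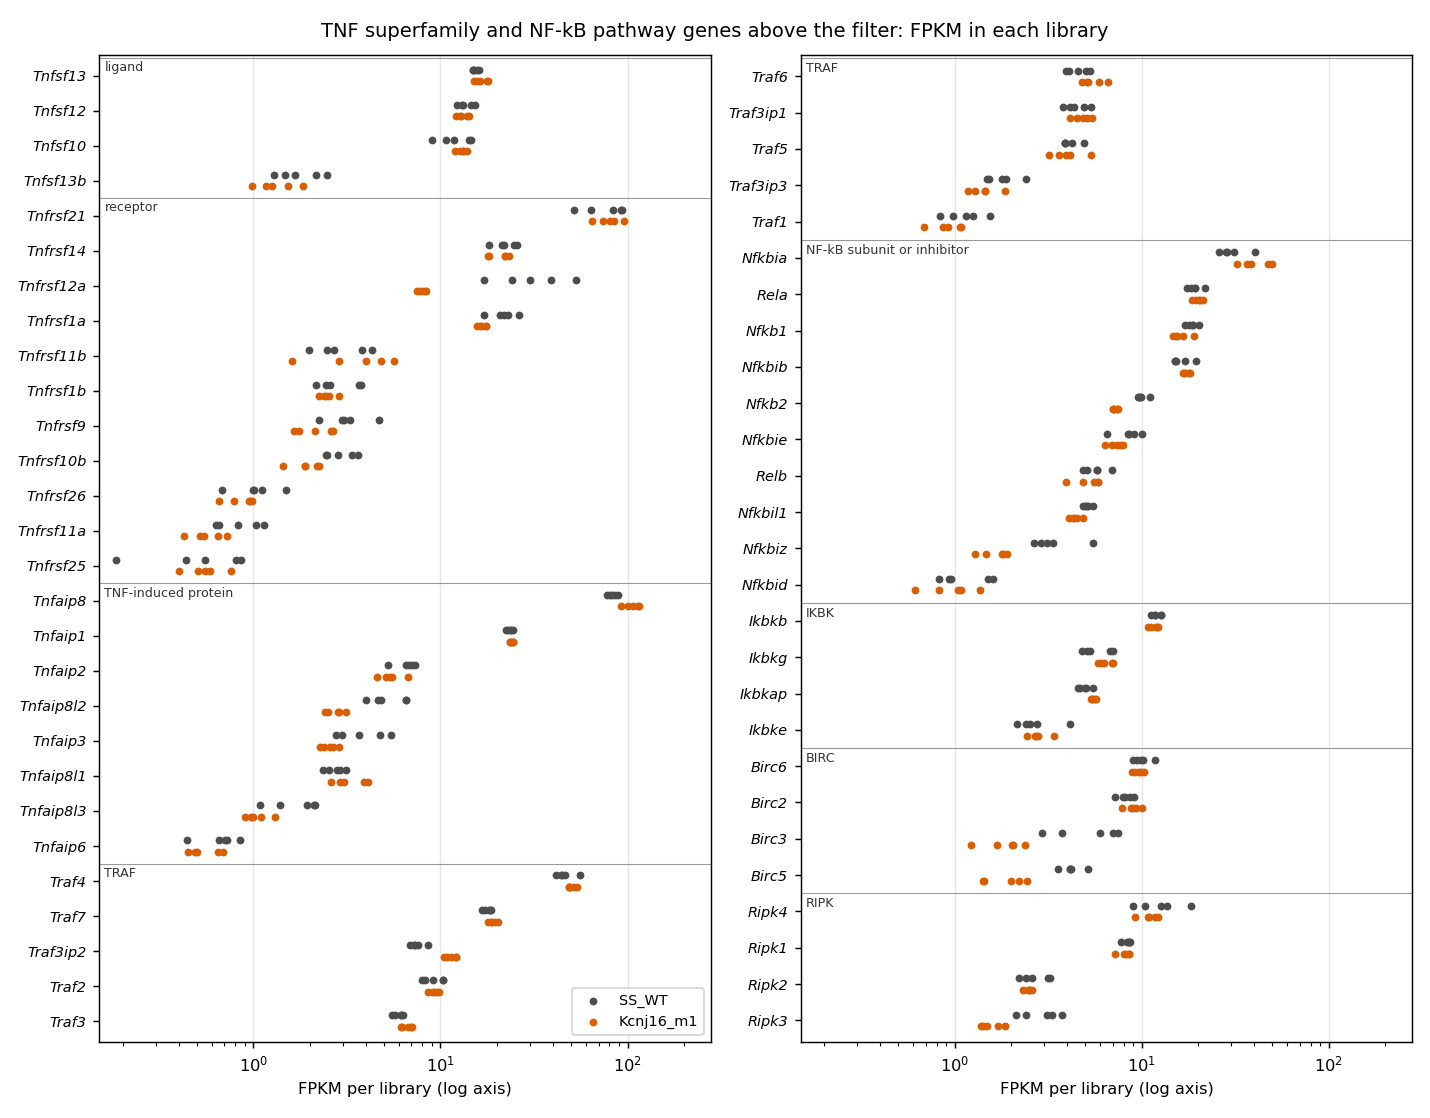
Level of each tested member in each library, in FPKM on a log axis, grouped by role, with wild-type and mutant libraries as separate points. Tnfrsf21 and Tnfaip8 lie highest, and the wild-type points of Tnfrsf12a lie between 17.2 and 53.2 FPKM, above all mutant points.

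Of 11 receptors tested, 3 fell and none rose (27.3% called, near the 28.5% of all tested genes). Tnfrsf12a, the receptor of Tnfsf12 that is induced in injured tissue, lies at chromosome 10, 12995904 to 12997930, minus strand in the table's coordinates. It was at 24.2, 39.2, 53.2, 17.2 and 30.1 FPKM in wild-type libraries 1 to 5 and 7.67, 7.52, 8.32, 8.305 and 7.99 FPKM in mutant libraries 1 to 5. Every wild-type library was above every mutant library, and the wild-type libraries spread far more than the mutant ones. The mean fell from 32.8 ± 14.005 to 7.96 ± 0.363 FPKM, n = 5 each (adjusted p = 0.000579, log2 fold change -1.87 with SE 0.24), a ratio of 0.243. This was the furthest fall of the 55 members.
Tnfrsf10b, the TRAIL receptor that triggers cell death, was at 2.83, 3.38, 3.64, 2.44 and 2.47 FPKM in wild-type libraries 1 to 5 and 2.25, 1.89, 2.18, 1.88 and 1.44 FPKM in mutant libraries 1 to 5. The groups did not overlap, although the lowest wild-type and highest mutant values were close. It fell from 2.95 ± 0.538 to 1.93 ± 0.3195 FPKM (adjusted p = 0.0144, log2 fold change -0.503 with SE 0.13). Tnfrsf1a, the main TNF receptor of most cells, was at 21.8, 22.9, 26.4, 17.2 and 20.8 FPKM in wild-type libraries 1 to 5 and 17.4, 16.3, 16.7, 15.7 and 17.6 FPKM in mutant libraries 1 to 5. Only wild-type library 4 reached into the mutant range. It fell from 21.8 ± 3.33 to 16.7 ± 0.798 FPKM (adjusted p = 0.0166, log2 fold change -0.36 with SE 0.094). Without wild-type libraries 1 and 2, whose sample identifiers have the lowest numbers, Tnfrsf10b (adjusted p = 0.0578) and Tnfrsf1a (adjusted p = 0.0669) no longer passed.
Tnfrsf21, the highest receptor, was at 83.1, 93.4, 51.8, 92.6 and 63.5 FPKM in wild-type libraries 1 to 5 and 64.4, 74.4, 84.3, 95.96 and 80.9 FPKM in mutant libraries 1 to 5. The ranges overlapped widely (log2 fold change 0.081, 95% interval -0.28 to 0.45, adjusted p = 0.75). Tnfrsf9, a T-cell costimulatory receptor, was at 3.25 ± 0.8901 FPKM in the wild type and 2.16 ± 0.468 FPKM in the mutant and did not pass (adjusted p = 0.0525), but passed without wild-type library 2 (adjusted p = 0.0268) or mutant library 5 (adjusted p = 0.0459). Tnfrsf9 also passed with limma-voom (adjusted p = 0.0386), with sample weights (adjusted p = 0.0423) and without wild-type libraries 1 and 2 (adjusted p = 0.0257). The others that did not pass were Tnfrsf14, Tnfrsf11b, Tnfrsf1b, Tnfrsf26, Tnfrsf11a and Tnfrsf25, with log2 fold changes from -0.33 to 0.22. Of these Tnfrsf11a passed without wild-type libraries 1 and 2 (adjusted p = 0.0325). Tnfrsf11b, the decoy receptor osteoprotegerin, had the widest interval of these (log2 fold change 0.22, 95% interval -0.403 to 0.83, adjusted p = 0.599).

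Among the 8 Tnfaip genes, grouped by symbol and not by induction, 3 fell and 1 rose (50% called, beside 28.5% of all tested genes). Tnfaip8, a regulator of cell survival, had the highest mean of all members and stood at 86.1, 82.5, 89.3, 80.2 and 78.1 FPKM in wild-type libraries 1 to 5 and 115, 114, 92.8, 107 and 100.3 FPKM in mutant libraries 1 to 5. Every mutant library lay above every wild-type library. It rose from 83.3 ± 4.499 to 106 ± 9.22 FPKM (adjusted p = 0.00402, log2 fold change 0.34 with SE 0.066). Its relative Tnfaip8l2, a brake on immune signalling that is made mainly by immune cells, went the other way and stood at 4.82, 4.65, 6.54, 4.02 and 6.52 FPKM in wild-type libraries 1 to 5 and 3.14, 2.42, 2.84, 2.52 and 2.86 FPKM in mutant libraries 1 to 5. The groups were well apart, and it fell from 5.31 ± 1.15 to 2.76 ± 0.286 FPKM (adjusted p = 0.00156, log2 fold change -0.82 with SE 0.13). Tnfaip8l2 overlaps Lysmd1 on the opposite strand, so their reads cannot be told apart if the libraries kept no strand. Lysmd1 itself was not called (adjusted p = 0.176).
Tnfaip3, the deubiquitinating enzyme that shuts NF-kB off, was at 2.75, 4.78, 5.46, 2.98 and 3.65 FPKM in wild-type libraries 1 to 5 and 2.88, 2.67, 2.58, 2.28 and 2.38 FPKM in mutant libraries 1 to 5. Wild-type libraries 2 to 5 lay above the mutant range, library 4 only just, and library 1 lay within it. It fell from 3.92 ± 1.16 to 2.56 ± 0.236 FPKM (adjusted p = 0.0376, log2 fold change -0.496 with SE 0.16). Tnfaip8l3, a lipid-transfer relative of Tnfaip8, was at 1.38, 1.93, 2.14, 1.09 and 2.097 FPKM in wild-type libraries 1 to 5 and 1.0003, 0.969, 0.899, 1.299 and 1.102 FPKM in mutant libraries 1 to 5, with overlap, and fell from 1.73 ± 0.468 to 1.05 ± 0.155 FPKM (adjusted p = 0.0315, log2 fold change -0.497 with SE 0.15). The calls of both were lost without any 1 of wild-type libraries 2, 3 and 5 or of mutant libraries 1, 2, 3 and 5, and that of Tnfaip3 also without mutant library 4. Over all alternatives that lost it, the adjusted p was 0.0512 to 0.0879 for Tnfaip3 and 0.0509 to 0.0755 for Tnfaip8l3. Tnfaip1, Tnfaip2, Tnfaip6 and Tnfaip8l1 did not pass, with log2 fold changes from -0.26 (Tnfaip2) to 0.22 (Tnfaip8l1), though Tnfaip2 passed without wild-type library 3 (adjusted p = 0.0298) or mutant library 5 (adjusted p = 0.0332). Tnfaip2 also passed with sample weights (adjusted p = 0.0324).

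Of the 10 TRAF adaptors and TRAF-binding genes, 1 rose and none fell (10% called, beside 28.5% of all tested genes). Traf3ip2, the adaptor of interleukin-17 receptors, was at 7.58, 6.89, 8.53, 7.21 and 7.34 FPKM in wild-type libraries 1 to 5 and 12.03, 11.3, 10.5, 12.1 and 10.8 FPKM in mutant libraries 1 to 5. The groups lay clearly apart. It rose from 7.51 ± 0.623 to 11.4 ± 0.702 FPKM (adjusted p = 0.000351, log2 fold change 0.57 with SE 0.066), the largest rise of the 55. The adaptor Traf4, the highest of the class, was at 46.6, 44.4, 44.3, 55.99 and 41.4 FPKM in wild-type libraries 1 to 5 and 48.8, 48.6, 53.8, 51.9 and 48.97 FPKM in mutant libraries 1 to 5, and wild-type library 4 was the highest of all 10. Its groups overlapped (log2 fold change 0.12, 95% interval -0.044 to 0.29, adjusted p = 0.249), and it passed only without that library among the alternatives (log2 fold change 0.19, adjusted p = 0.0234). Traf2, Traf5 and Traf6, which carry receptor signals to the IKK kinases, and Traf1, Traf3, Traf7, Traf3ip1 and Traf3ip3 did not pass, with log2 fold changes from -0.25 (Traf3ip3) to 0.25 (Traf6).

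Of the 10 NF-kB subunits and inhibitors, 3 fell and none rose (30% called, near the 28.5% of all tested genes). Nfkb2, the precursor of the alternative-pathway subunit, was at 9.51, 9.75, 11.1, 9.91 and 9.64 FPKM in wild-type libraries 1 to 5 and 7.38, 7.12, 7.48, 6.99 and 7.01 FPKM in mutant libraries 1 to 5. All wild-type values were above all mutant values and both groups were tight. It fell from 9.97 ± 0.621 to 7.196 ± 0.221 FPKM (adjusted p = 0.000421, log2 fold change -0.44 with SE 0.054). Nfkbiz, a nuclear IkB protein that steers which targets are read, was at 2.91, 3.12, 5.52, 2.64 and 3.36 FPKM in wild-type libraries 1 to 5 and 1.8004, 1.904, 1.81, 1.47 and 1.29 FPKM in mutant libraries 1 to 5. The groups did not overlap, and wild-type library 3 stood highest. It fell from 3.51 ± 1.15 to 1.66 ± 0.262 FPKM (adjusted p = 0.00384, log2 fold change -0.86 with SE 0.17). Both carry a kappaB match near the start, as printed above, and so do Traf7, Traf3, Nfkb1 and Ikbkg, which did not pass. Nfkbil1, an IkB-like gene of the MHC region, was at 4.96, 5.47, 4.84, 5.19 and 5.102 FPKM in wild-type libraries 1 to 5 and 4.27, 4.83, 4.07, 4.34 and 4.51 FPKM in mutant libraries 1 to 5. The lowest wild-type value lay just above the highest mutant value. It fell from 5.11 ± 0.242 to 4.405 ± 0.286 FPKM (adjusted p = 0.0346, log2 fold change -0.195 with SE 0.061). It overlaps RT1-CE genes and Atp6v1g2, and its call was lost without any 1 of wild-type libraries 2, 4 and 5 or of mutant libraries 1, 3, 4 and 5 (adjusted p 0.0509 to 0.0980 over all alternatives that lost it).
Nfkbia, the classical inhibitor whose own gene NF-kB switches on, was the highest of the class, at 28.2, 31.1, 40.4, 28.5 and 25.8 FPKM in wild-type libraries 1 to 5 and 36.7, 49.4, 38.5, 47.1 and 32.3 FPKM in mutant libraries 1 to 5. The ranges overlapped, since wild-type library 3 was above mutant libraries 1, 3 and 5. It did not pass (log2 fold change 0.399, 95% interval 0.095 to 0.702, adjusted p = 0.051), but it passed without wild-type library 3 (log2 fold change 0.50, adjusted p = 0.0137) or without mutant library 5 (adjusted p = 0.0286). With all libraries kept, Nfkbia also passed with sample weights (adjusted p = 0.0190), limma-voom (adjusted p = 0.0374) and a filter of 1 FPKM (adjusted p = 0.0487). In the other 14 of 19 alternatives it did not pass. The main activating subunit Rela was at 19.3 ± 1.63 FPKM in the wild type and 20.01 ± 1.01 FPKM in the mutant (adjusted p = 0.554) and its partner precursor Nfkb1 at 18.5 ± 1.17 FPKM in the wild type and 16.2 ± 1.69 FPKM in the mutant (adjusted p = 0.0726). Nfkb1 passed on the lower side without mutant library 5 (adjusted p = 0.0159) and with quantile normalization (adjusted p = 0.0471). Relb, the partner of the Nfkb2 product, was at 5.68 ± 0.799 FPKM in the wild type and 5.203 ± 0.802 FPKM in the mutant (adjusted p = 0.478). The inhibitors Nfkbib, Nfkbie and Nfkbid did not pass, though Nfkbie passed on the lower side without wild-type library 4 (log2 fold change -0.30, adjusted p = 0.0193) and Nfkbib on the higher side without wild-type libraries 1 and 2 (log2 fold change 0.19, adjusted p = 0.0210).

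**Figure D3:**
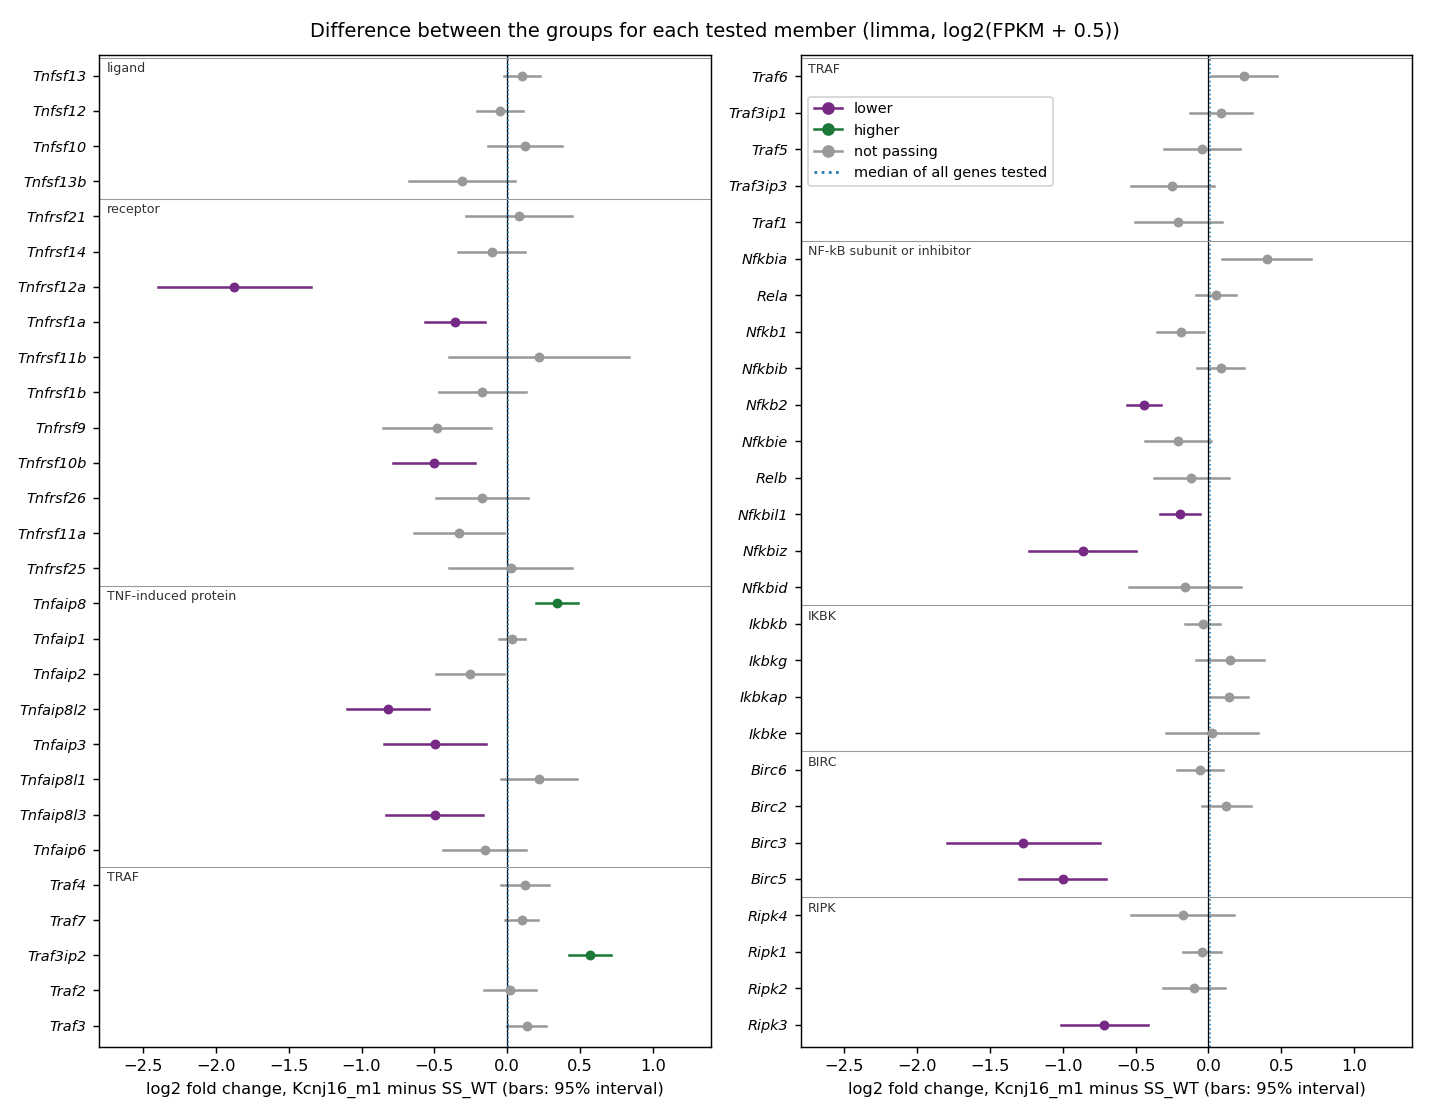
Log2 fold change of each tested member, mutant minus wild type on log2(FPKM + 0.5), with 95% intervals, grouped by role, and a dotted line at the median of all tested genes. Tnfrsf12a lies lowest at -1.87 and Traf3ip2 highest at 0.57.

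None of the 4 Ikbk genes passed. Ikbkb, a catalytic IKK subunit, was at 12.7, 11.8, 12.6, 11.7 and 11.3 FPKM in wild-type libraries 1 to 5 and 10.8, 11.96, 12.1, 12.2 and 11.3 FPKM in mutant libraries 1 to 5. The groups overlapped (log2 fold change -0.041, 95% interval -0.16 to 0.077, adjusted p = 0.604). The scaffold subunit Ikbkg (adjusted p = 0.322) and the related kinase Ikbke (adjusted p = 0.908) did not pass. Ikbkap, an elongator subunit despite its name, did not pass either (adjusted p = 0.102), but did so without wild-type library 1 (adjusted p = 0.0352).

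Of the 4 BIRC genes tested, 2 fell (50% called, beside 28.5% of all tested genes). Birc3, a ubiquitin ligase bound to TRAF proteins and a known NF-kB target, was at 3.74, 7.51, 7.06, 2.93 and 5.99 FPKM in wild-type libraries 1 to 5 and 2.01, 2.06, 1.69, 1.22 and 2.39 FPKM in mutant libraries 1 to 5. The groups did not overlap, and wild-type libraries 1 and 4 were nearest to the mutant. It fell from 5.45 ± 2.02 to 1.87 ± 0.441 FPKM (adjusted p = 0.00336, log2 fold change -1.27 with SE 0.24). Birc5, survivin, a cell-division protein, was at 3.58, 4.21, 4.15, 4.14 and 5.18 FPKM in wild-type libraries 1 to 5 and 1.44, 1.42, 2.43, 1.999 and 2.203 FPKM in mutant libraries 1 to 5. All wild-type values were above all mutant values. It fell from 4.25 ± 0.576 to 1.898 ± 0.453 FPKM (adjusted p = 0.000762, log2 fold change -0.999 with SE 0.14). Birc5 overlaps an unnamed gene on the opposite strand. Birc6, the highest of the class and a large ubiquitin-conjugating inhibitor of cell death, was at 9.47, 10.1, 8.94, 11.7 and 9.898 FPKM in wild-type libraries 1 to 5 and 10.2, 8.91, 9.68, 9.23 and 9.97 FPKM in mutant libraries 1 to 5, with wide overlap (log2 fold change -0.057, 95% interval -0.22 to 0.102, adjusted p = 0.588). Birc2, the close relative of Birc3, was at 8.21 ± 0.717 FPKM in the wild type and 8.99 ± 0.804 FPKM in the mutant (adjusted p = 0.254).

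Of the 4 RIPK kinases, 1 fell (25% called, near the 28.5% of all tested genes). Ripk3, the kinase that drives necroptosis, was at 2.13, 3.099, 3.73, 2.395 and 3.33 FPKM in wild-type libraries 1 to 5 and 1.41, 1.85, 1.498, 1.38 and 1.71 FPKM in mutant libraries 1 to 5. The groups did not overlap. It fell from 2.94 ± 0.662 to 1.57 ± 0.204 FPKM (adjusted p = 0.00351, log2 fold change -0.71 with SE 0.14). Ripk1, its upstream partner at the TNF receptor, was at 8.39 ± 0.359 FPKM in the wild type and 8.12 ± 0.553 FPKM in the mutant (adjusted p = 0.587), and Ripk2, the kinase of NOD receptors, at 2.72 ± 0.4503 FPKM in the wild type and 2.48 ± 0.104 FPKM in the mutant (adjusted p = 0.478). Ripk4, an epithelial kinase and the highest of the class, was at 13.7, 12.6, 8.95, 18.3 and 10.4 FPKM in wild-type libraries 1 to 5 and 10.8, 9.17, 10.97, 12.2 and 11.8 FPKM in mutant libraries 1 to 5. The 2 groups overlapped (log2 fold change -0.18, 95% interval -0.53 to 0.17, adjusted p = 0.434).

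**Figure D4:**
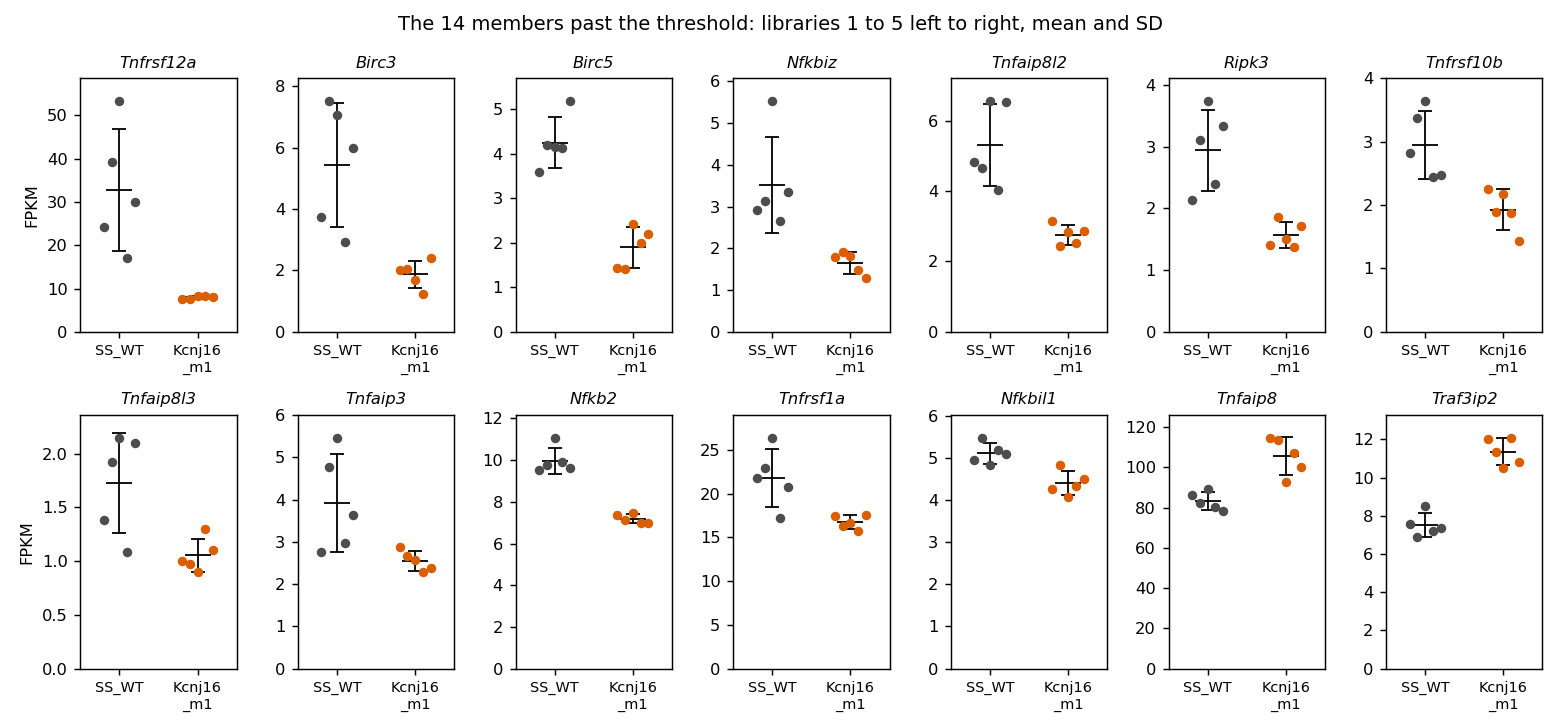
Level of each of the 14 called members in each library, in FPKM, wild type beside mutant, with lines for the group mean and SD, and libraries 1 to 5 from left to right. In 11 of the 14 no wild-type point overlaps the mutant points. These are the only such members of the 55 tested, a share near the 19.2% of all tested genes.

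The wild-type libraries were not alike for the members that fell. Wild-type library 3 was the highest of its group for 9 of the 12, library 2 for 2 and library 5 for 1, and library 4 was the lowest for 7. The median excess of the 12 genes over the mutant mean, on the log2 scale, was 0.42, 0.72, 0.97, 0.46 and 0.80 in wild-type libraries 1 to 5. The mutant libraries lay between -0.06 and 0.05. These genes were picked as lower in the same libraries, and each was set against its own mutant mean. The sign of the excess was therefore fixed in advance and is no support for a fall. The injured-tubule marker Havcr1 (kidney injury molecule) was at 15.1, 25.8, 42.3, 5.85 and 19.5 FPKM in wild-type libraries 1 to 5 and 0.521, 0.196, 0.238, 0.495 and 0.384 FPKM in mutant libraries 1 to 5, so that it too was highest in wild-type library 3 and lowest in library 4 of that group. Ptprc, the marker of all leukocytes, was at 4.15, 5.21, 7.45, 5.15 and 6.15 FPKM in wild-type libraries 1 to 5 and 2.52, 3.29, 3.33, 2.495 and 2.62 FPKM in mutant libraries 1 to 5 (adjusted p = 0.00174, log2 fold change -0.86 with SE 0.14). Cd3e, of T cells, was at 1.12, 1.29, 1.47, 0.513 and 1.43 FPKM in wild-type libraries 1 to 5 and 0.406, 0.589, 0.379, 0.356 and 0.241 FPKM in mutant libraries 1 to 5 (adjusted p = 0.00712). Only mutant library 2 reached 0.5 FPKM, so Cd3e met the filter through the wild type and its call is no support for a fall.
Of 19 tested macrophage and dendritic-cell markers 16 fell and none rose, with a summed level of 1133 to 1603 FPKM in wild-type and 863 to 1039 FPKM in mutant libraries. Of 10 tested T-, B- and NK-cell markers 9 fell, with sums of 30.2 to 46.6 against 17.4 to 21.8 FPKM. Another 9 were below the filter, which the wild-type libraries alone can meet, so this count favours markers high in the wild type. The sums include the untested markers. Of 18 tested injured-tubule markers 13 fell, with sums of 822 to 3571 against 438 to 514 FPKM. The shares that fell were 84.2%, 90% and 72.2% of the tested markers of these 3 lists, beside 14% of all tested genes. In each list the wild-type libraries alone can meet the filter, so these shares favour markers high in the wild type. Havcr1 met it through the wild type, since only mutant library 1 reached 0.5 FPKM. No marker of these 3 lists was at 0 in all libraries. In wild-type libraries 1 to 5 the median excess was 0.42, 0.78, 1.03, 0.54 and 0.90 for the macrophage and dendritic-cell list. It was 0.89, 0.70, 1.19, 0.52 and 0.92 for the T-, B- and NK-cell list and 0.72, 0.88, 1.01, 0.28 and 0.81 for the injured-tubule list. Library 3 was the highest of the group for each of these lists and for the members that fell. Over all tested members the median excess was 0.067, 0.057, 0.13, 0.038 and 0.15, highest in library 5. The inner-medulla list, with 1 gene tested, gave 0.019, 0.27, 0.44, -0.14 and 0.19, also highest in library 3. The cortex tubule list gave -0.17, -0.17, -0.71, -0.16 and -0.36, lowest in library 3. The part of these cells in the falls of the members was not tested.
Divided by Ptprc in the same library, the levels of the members that fell did not share 1 pattern. Tnfaip8l2 (0.781 to 1.16 in wild-type and 0.737 to 1.24 in mutant libraries), Nfkbiz (0.514 to 0.741 and 0.493 to 0.715), Birc3 (0.569 to 1.44 and 0.489 to 0.913), Birc5 (0.557 to 0.862 and 0.431 to 0.841) and Ripk3 (0.465 to 0.595 and 0.450 to 0.654) had overlapping ratios. The ratio of Tnfrsf12a to Ptprc was 5.74 ± 1.71 in the wild type and 2.84 ± 0.431 in the mutant. For 6 other members the mean ratio was higher in the mutant, the opposite side from the level. This also held for Tnfaip8l2 (0.955 and 0.988) and Ripk3 (0.523 and 0.556). Ptprc itself fell to 0.507 of its wild-type mean, so a member that fell less gives a higher ratio by arithmetic. The ratio of Nfkbil1 was 0.649 to 1.19 in wild-type and 1.22 to 1.74 in mutant libraries, without overlap. The ratios of Nfkb2 (1.48 to 2.29 and 2.16 to 2.93), Tnfrsf1a (3.34 to 5.24 and 4.95 to 6.92), Tnfrsf10b (0.402 to 0.680 and 0.551 to 0.893), Tnfaip3 (0.579 to 0.917 and 0.775 to 1.14) and Tnfaip8l3 (0.211 to 0.369 and 0.2703 to 0.521) overlapped.

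**Figure D5:**
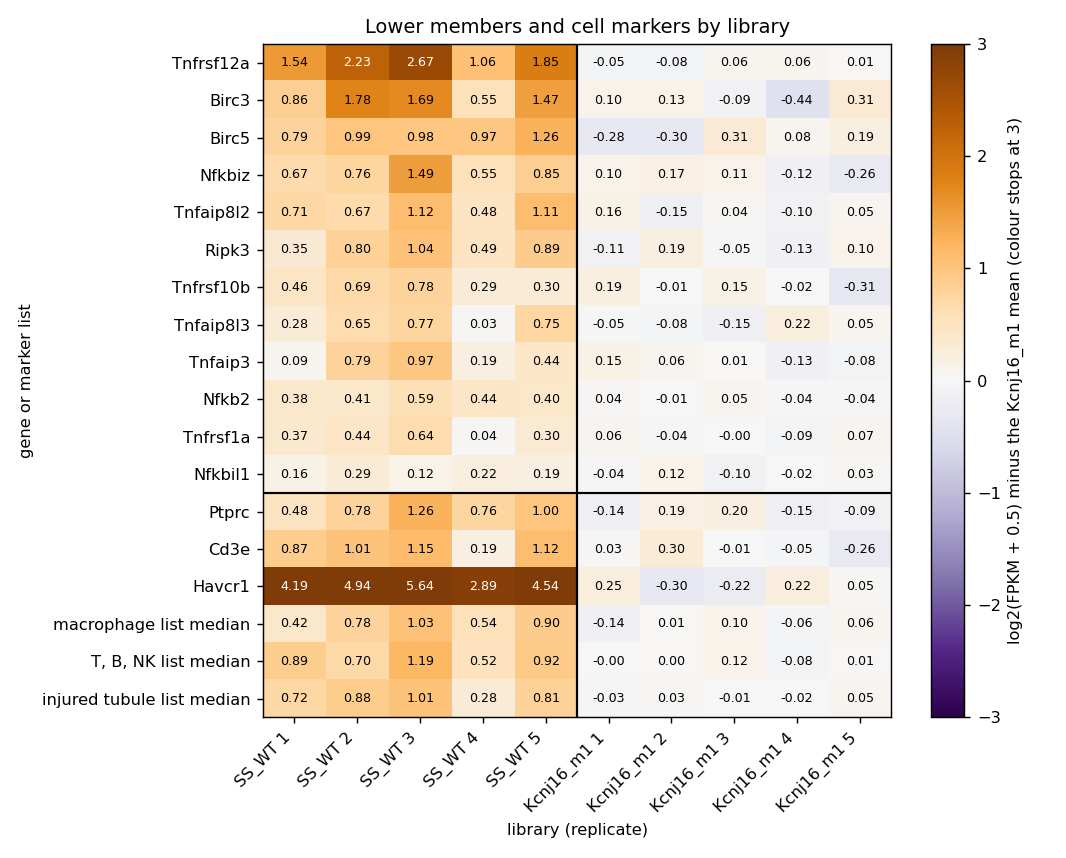
Heat map of log2(FPKM + 0.5) minus the mean of the mutant libraries, by library (columns), for the 12 members that fell, for Ptprc, Cd3e and Havcr1, and as medians of the 3 marker lists (rows below the line). Colour stops at 3 on either side, and the printed numbers are the values. Wild-type library 3 is the highest of its group for 9 of the 12 members, and Tnfrsf12a stands there at 53.2 FPKM.

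Genes of the same pathways under other names were counted from lists. Of 16 further TNF superfamily genes, 6 were tested, 1 fell and 1 rose (33.3% called, beside 28.5% of all tested genes), with a median log2 fold change of -0.16. Rell1, a receptor-like relative, fell from 8.04 ± 1.14 to 5.24 ± 0.641 FPKM (adjusted p = 0.00311, log2 fold change -0.57 with SE 0.105). Rell2 was at 0.368 ± 0.103 FPKM in the wild type and 0.653 ± 0.128 FPKM in the mutant (adjusted p = 0.0384). It met the filter only through the mutant libraries, at 0.5003 to 0.804 FPKM against 0.243 to 0.474 FPKM in the wild type, so its call is no support for a rise. It was not tested with a filter of 1 FPKM or without any 1 mutant library. It also overlaps Fchsd1 and lost its call without any 1 of wild-type libraries 2, 4 and 5 (adjusted p 0.0538 to 0.102 over the alternatives that lost it). Cd40 (adjusted p = 0.104) and Ltbr (adjusted p = 0.299) did not pass, though Cd40 passed without wild-type library 2 (adjusted p = 0.0451).
Of 45 NF-kB adaptors, kinases and regulators under other names, all tested, 10 fell and 2 rose, with a median log2 fold change of -0.03. This is 26.7% called, near the 28.5% of all tested genes. Bcl3, a nuclear IkB protein, fell from 8.71 ± 2.48 to 3.13 ± 0.757 FPKM (adjusted p = 0.00119, log2 fold change -1.32 with SE 0.198). Tnip3, a Tnfaip3-binding inhibitor, fell from 1.42 ± 0.325 to 0.572 ± 0.124 FPKM (adjusted p = 0.00191). Tifa, a TRAF-binding adaptor, fell from 2.73 ± 1.15 to 0.973 ± 0.112 FPKM (adjusted p = 0.00407), and overlaps Alpk1 on the opposite strand. Otulin, which removes linear ubiquitin, fell from 9.503 ± 1.52 to 6.72 ± 0.624 FPKM (adjusted p = 0.00738). Rel, Tradd, Cflar, Card9, Tnip1 and Xiap also fell. Map3k7, the kinase TAK1 that activates IKK, rose and was at 1.403, 0.252, 0.278, 0.352 and 0.293 FPKM in wild-type libraries 1 to 5 and 1.05, 1.54, 1.13, 1.51 and 1.06 FPKM in mutant libraries 1 to 5. Wild-type library 1 stood apart from the other 4 and reached into the mutant range, and the rise (adjusted p = 0.0209, log2 fold change 0.88 with SE 0.24) missed the threshold without wild-type library 2 (adjusted p = 0.0517). The other 4 wild-type libraries were below 0.5 FPKM, so Map3k7 met the filter through the mutant libraries, and its call is no support for a rise. Rnf31, of the linear ubiquitin ligase, rose from 5.45 ± 0.222 to 6.597 ± 0.802 FPKM (adjusted p = 0.0326), which was lost without any 1 of wild-type libraries 2, 4 and 5 or of mutant libraries 2 and 3 (adjusted p 0.0526 to 0.0660 over the alternatives that lost it).
Of 47 listed NF-kB target genes, 44 matched and 34 were tested. Of these 13 fell and 1 rose (41.2% called, beside 28.5% of all tested genes), with a median log2 fold change of -0.31. Ubd, a ubiquitin-like protein induced by cytokines, fell from 80.7 ± 48.05 to 11.7 ± 2.38 FPKM (adjusted p = 0.000752, log2 fold change -2.55 with SE 0.35), and Lcn2, the neutrophil gelatinase-associated lipocalin, fell from 23.2 ± 14.5 to 1.88 ± 0.475 FPKM (adjusted p = 0.00067). Cxcl11, a T-cell chemokine that overlaps Art3, fell from 12.6 ± 4.04 to 4.16 ± 0.235 FPKM (adjusted p = 0.000575). Icam1, Ccl2, Bcl2a1, Junb, C3, Psmb9, Myc, Cd44, Cd69 and Rnd1 fell as well. Ptgs2, the inducible cyclooxygenase, rose from 1.198 ± 0.0456 to 4.296 ± 0.331 FPKM (adjusted p = 1.47e-06, log2 fold change 1.495 with SE 0.071). Of the targets, 3 are also on the injured-tubule list.

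The reads assigned to genes, recovered from the FPKM values, came to 16361516 to 23385968 per library, and 21459 of the 32545 genes were above 0 in at least 1 library. Of the cortex markers, the proximal tubule transporter Slc34a1 was at 1441 FPKM in the wild type and 1905 FPKM in the mutant. Of 17 tested genes on the list of cortex tubule markers 8 rose and 1 fell, and Pvalb was at 0 in all libraries. These shares are 47.1% higher and 5.88% lower, beside 14.6% and 14% of all tested genes. Kcnj16 was at 347 ± 21.6 FPKM in the wild type and 326 ± 13.3 FPKM in the mutant (adjusted p = 0.278), so its transcript does not check the labels.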

How the data were processed

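Poly-A RNA was extracted with Trizol from cortex of PBS-flushed left kidneys, per the labels' protocols. These describe a directional and a non-directional library without saying which was made. The FPKM values per gene and library were calculated and deposited by the authors. The submitters' processing notes name featureCounts 1.5.0-p3, StringTie 1.3.3b, HISAT2 2.0.5 and fastp as tools. The build of the genome was not given in the sources used here. Columns were matched to samples by the title identifiers and groups taken from the genotype labels, with replicates numbered in accession order. FPKM times gene length gave whole reads for 100% of values, within 0.05 reads. Within a group, the chi-square per gene of paired libraries was 6.58 to 39.3, above sampling noise, so no pair was merged as 1 library deposited again. This does not show that libraries came from separate animals.

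The group difference was fitted with limma 3.58.1 (R 4.3.3, eBayes with trend) on log2(FPKM + 0.5) for genes of at least 0.5 FPKM in at least 5 libraries. P-values were two-sided and adjusted by Benjamini-Hochberg over all tested genes, with a threshold of 0.05. A fold change is the mutant minus the wild-type mean of log2(FPKM + 0.5), which understates changes of low genes, and ± is the SD over 5 libraries. The members and lists were chosen with earlier results of these data known. All members are accounted for. Values in every library are given for Tnf, for called members without overlap and with a change of at least 0.5, and for the highest member of each role, and of each other list up to 4 genes with the smallest adjusted p and those called against the majority are named. The other called members and Havcr1, Ptprc, Cd3e, Map3k7 and Nfkbia are also shown by library. Promoters of members were matched to RefSeq (GRCr8) by symbol, or failing that by Ensembl identifier or synonym, 55 members with an entry and 16 without. Those of all tested genes were matched by symbol only. The table's own coordinates are of the authors' unnamed build.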

Additional observations from a re-analysis of the deposited data

Results flagged for a closer look

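In 146 groups of 5 libraries examined, 1 library stood far from the other 4 in 4 groups. Chance alone gives about 1 in 20, which would be more groups than were found, so the flags are no excess. Nfkb2 in wild-type library 3 was 11.1 FPKM against 9.51 to 9.91 FPKM in the other wild-type libraries, and without it the log2 fold change was -0.41 (adjusted p = 0.000564). Nfkbiz in the same library was 5.52 FPKM against 2.64 to 3.36 FPKM, and without it the log2 fold change was -0.71 (adjusted p = 0.00213). Map3k7 in wild-type library 1 was 1.403 FPKM against 0.252 to 0.352 FPKM, and without it the log2 fold change was 1.14 (adjusted p = 0.000325). Without that library Map3k7 met the filter through the mutant libraries alone. Rnf31 in wild-type library 4 was 5.06 FPKM against 5.49 to 5.62 FPKM, and without it the log2 fold change was 0.22 (adjusted p = 0.0638).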

How the results depend on the processing

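Across 19 alternatives, 9 of the 14 called members passed in each one: Tnfrsf12a, Birc3, Birc5, Nfkbiz, Tnfaip8l2, Ripk3, Nfkb2, Tnfaip8 and Traf3ip2. The limma-voom test on the recovered reads was chosen after seeing the data, in place of 2 count models that were planned and not run because the values are FPKM. Leaving out 1 library each gave 1516 to 2364 higher and 1473 to 2112 lower genes among all tested, and 2 to 3 higher and 9 to 12 lower members. It gave 0 to 1 higher and 1 to 2 lower superfamily genes under other names, 0 to 5 higher and 6 to 10 lower regulators, and 1 to 3 higher and 11 to 14 lower targets. Of the superfamily genes under other names 3 fell with no filter and 2 with voom, and 0 rose with a filter of 1 FPKM or without wild-type libraries 1 and 2. Targets that rose numbered 2 with quantile normalization, 3 with sample weights and 3 without those 2 libraries, and regulators that rose numbered 5 with sample weights. Among uncalled members the direction turned for Tnfrsf25 (-0.12 to 0.12 leaving out 1 library, -0.17 without wild-type libraries 1 and 2), Ikbke (-0.045 to 0.16, and -0.10), Traf2 (-0.028 to 0.063), Tnfrsf21 (-0.051 to 0.16) and Traf5 (-0.14 to 0.026). The median of the members ran from -0.16 to -0.05. The cause of these shifts was not tested. No paired analysis was possible because the labels give no replicate numbers. Depth limits the 18 untested members.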

Other observations

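Birc2 and Birc3 are neighbours on chromosome 8, with 14826 bases between them in the table's coordinates. The level of Birc3 relative to Birc2, which code closely related ubiquitin ligases, was 0.434, 1.04, 0.863, 0.369 and 0.658 in wild-type libraries 1 to 5 and 0.225, 0.235, 0.180, 0.122 and 0.304 in mutant libraries 1 to 5. Every wild-type ratio was above every mutant ratio. The ratio of the receptor Tnfrsf12a to its ligand Tnfsf12 was 2.37 ± 0.921 in the wild type and 0.607 ± 0.0538 in the mutant (SD, n = 5), again without overlap. The ratio of the inhibitor Nfkbia to Nfkb1 was 1.52 to 2.15 in wild-type and 1.70 to 3.35 in mutant libraries. These pairs were chosen after their values were seen, and no test was made.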
